A study of Rattus norvegicus with 4 samples.

Results

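The fibrillar collagens were read on 4 arrays of rat hepatic stellate cells as 6 genes out of 35561 gene names, through 15 probes out of 41012 gene probes. All probes named on the array after Col1a1, Col1a2, Col3a1, Col5a1, Col5a2 or Col11a1 were taken, whatever their values. Col1a1 and Col5a2 had 3 probes each, Col1a2 and Col5a1 had 2 each, Col3a1 had 1 and Col11a1 had 4. Probes of a gene are numbered here by their brightness. Of the 15, 14 passed the filter for signal above background, and Col11a1 probe 4 did not.

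Hepatic stellate cells lie along the liver sinusoids, store vitamin A and make most of the collagen of a scarring liver. The test RNA came from cells transfected with an siRNA against endoglin (Eng), a transforming growth factor beta co-receptor, or from untreated cells. In each case it was labelled with Cy5 and co-hybridised with RNA from control siRNA cells, labelled with Cy3. Each test group held 2 arrays, 1 with RNA of 1 animal and 1 with RNA pooled from 3 animals. The strain, age and sex of the rats, the siRNA sequences and the time after transfection are not stated in the labels. Nor do the labels say whether arrays shared a control RNA, or whether the single animal was part of the pool. Each value below is a log2 ratio of the Cy5 RNA over the control siRNA RNA unless a level is named. No array had the dyes exchanged, so in a comparison with control siRNA the dye and the treatment cannot be told apart. A constant dye effect cancels in the comparison of endoglin siRNA with untreated cells. That comparison sets transfected against untransfected cells, so transfection and the siRNA's target cannot be told apart in it.

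Fibrillar collagens form the rope-like fibrils of connective tissue. Col1a1 and Col1a2 encode the chains of type I collagen, in which the first chain outnumbers the second, and Col3a1 encodes the only chain of type III collagen, which co-polymerises with type I in the liver. Col5a1 and Col5a2 encode chains of type V collagen, which sits inside type I fibrils and starts their assembly. Col11a1 encodes a chain of type XI collagen, the closest relative of type V and best known from cartilage. In injured liver, stellate cells that become myofibroblasts raise type I and type III collagen, and transforming growth factor beta signalling through Smad proteins is a known inducer of these genes.

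Eng, the target of the siRNA, was lower in endoglin siRNA cells. Eng had ratios of -3.08 in the 1-animal and -1.72 in the pooled endoglin siRNA cells, against -0.36 and -0.42 in the untreated cells. The mean was -2.40 ± 0.25 (SE, n = 2) in endoglin siRNA cells, with an adjusted p of 0.0042 by limma over all 29845 probes tested. Against untreated cells the difference was -2.02, which did not pass (adjusted p 0.152 by limma). The drop against control siRNA was deeper on the 1-animal array. Of 15 stellate cell markers, 14 had a measured probe, and Des, Pdgfrb, Pdgfra, Lrat, Reln, Vim, Tagln, Ngfr, Lhx2, Cygb, Rgs5 and Vcl were well above background in both channels of all 4 arrays. Gfap was well above background in Cy5 on 3 arrays and in Cy3 on 1. The untreated pool stood apart in detection. Its share of spots well above background was 93.3% for Cy5 and 87.2% for Cy3. On the remaining arrays that share lay between 61.9% and 70.2% in either dye. Saturated spots numbered 0 on every array. The part of this detection difference in the ratios of the untreated pool was not tested.

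With endoglin siRNA, the fibrillar collagens went in different directions relative to control siRNA. All 3 Col1a1 probes and both Col5a1 probes fell, by 0.51 to 0.89 on the log2 scale, and turned round in sign only when arrays were median-centred without loess. The Col3a1 probe and 2 of the Col11a1 probes rose, by 1.65-fold to 2.02-fold. No probe of Col1a2 or Col5a2, the partner chains of Col1a1 and Col5a1, passed the test. In all, 8 of the 14 tested probes passed (5 lower and 3 higher), beside 8.28% of all tested probes (3.09% lower and 5.19% higher). At an unadjusted p under 0.05 the counts were 9 of 14 and 23.2% of all. Of the 14, 10 were among the brightest 10% of probes, in which 23.3% passed (14.1% lower and 9.21% higher). In that brightest 10%, 48% had an unadjusted p under 0.05 by limma. The probes of a gene share their RNA and are not independent of each other. The median over the 14 was 0.01, against 0.02 over all tested probes.

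**Figure D1:**
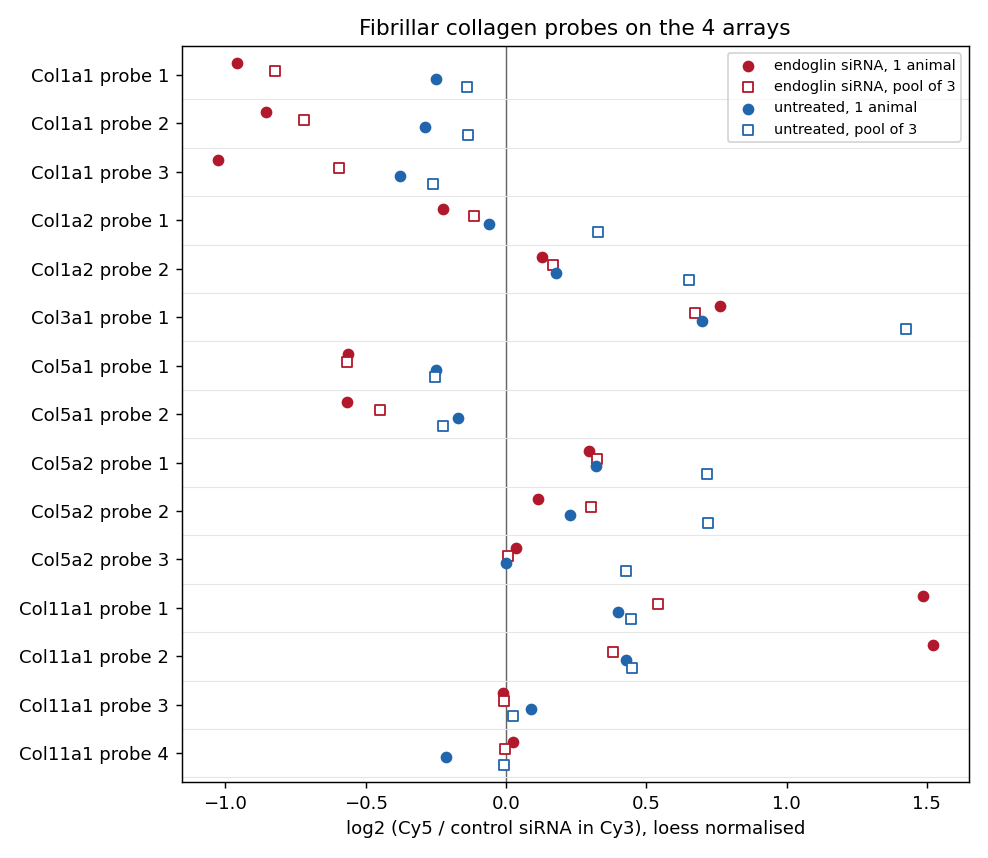
Log2 ratio of Cy5 RNA to control siRNA RNA (horizontal axis) for each of the 15 probes (rows) on each array; circles are 1-animal arrays and squares are pooled arrays, red for endoglin siRNA and blue for untreated cells. Col1a1 and Col5a1 lie lowest on the endoglin siRNA arrays, between -1.03 and -0.45 after loess (above 0 with median centring alone), Col3a1 lies to the right on every array, and Col11a1 probes 1 and 2 stand far to the right only on the 1-animal endoglin siRNA array; the points of Col11a1 probe 4 rest on signals that were mostly not well above background.

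Col1a1 encodes the main chain of type I collagen. Its probe 1 had ratios of -0.96 (1 animal) and -0.82 (pool) in endoglin siRNA cells, against -0.25 and -0.14 in untreated cells. Probe 2 had -0.85 and -0.72 in endoglin siRNA cells, against -0.29 and -0.13 in untreated cells. Probe 3 had -1.03 and -0.60 in endoglin siRNA cells, against -0.38 and -0.26 in untreated cells. On every probe both endoglin siRNA arrays were lower than both untreated arrays, so the groups did not overlap. On 11.5% of all tested probes both endoglin siRNA arrays lay below both untreated arrays, and on 24.1% above them. Against control siRNA, probe 1 fell by 0.89 ± 0.07 (SE) on the log2 scale, 1.85-fold, with an adjusted p of 0.00267. Probes 2 and 3 fell by 0.79 ± 0.07 and by 0.81 ± 0.10, with adjusted p-values of 0.00326 and 0.00621. In the array design's coordinates, for which no genome build was stated, the 3 probes lie within 0.3 kb of each other on chromosome 10. Probes 2 and 3 share 7 bases.

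Col1a2 encodes the second chain of type I collagen and did not follow Col1a1. Its probe 1 had ratios of -0.22 and -0.12 in endoglin siRNA cells, against -0.06 and 0.33 in untreated cells. Probe 2 had 0.13 and 0.17 in endoglin siRNA cells, against 0.18 and 0.65 in untreated cells. The untreated pool was highest on both probes. Against control siRNA, the means in endoglin siRNA cells were -0.17 ± 0.09 (adjusted p 0.355) and 0.15 ± 0.11 (adjusted p 0.477), so neither passed and the probes differed in sign. Within an array, the mean ratio of Col1a1 lay below that of Col1a2 by 0.90 and 0.74 on the log2 scale in endoglin siRNA cells (differences of -0.90 and -0.74). In untreated cells the differences were -0.36 and -0.67. The gap between the type I chains was thus present on all 4 arrays, and the pooled values were close in the 2 test groups.

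In type V collagen, too, the ratio of the first chain lay below that of its partner on every array. Col5a1, the first chain, had ratios of -0.56 and -0.57 on probe 1 in endoglin siRNA cells, against -0.25 and -0.25 in untreated cells. Probe 2 had -0.56 and -0.45 in endoglin siRNA cells, against -0.17 and -0.22 in untreated cells. On either probe both endoglin siRNA arrays lay below both untreated arrays, as they did on 11.5% of all tested probes. The 1-animal and pooled arrays lay close together. Against control siRNA, probe 1 fell by 0.56 ± 0.06 on the log2 scale (1.48-fold, adjusted p 0.00421). Probe 2, which lies 10.3 kb from probe 1 on chromosome 3, fell by 0.51 ± 0.06 (1.42-fold, adjusted p 0.00655).

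Col5a2 encodes the other common chain of type V collagen. Probe 1 had ratios of 0.29 and 0.32 in endoglin siRNA cells, against 0.32 and 0.72 in untreated cells. Probe 2, which shares 40 bases with probe 1, had 0.11 and 0.30 in endoglin siRNA cells, against 0.23 and 0.72 in untreated cells. Probe 3 had 0.04 and 0.01 in endoglin siRNA cells, against 0.00 and 0.43 in untreated cells. The untreated pool was again the highest array on every probe. In endoglin siRNA cells the means against control siRNA were 0.31 ± 0.09, 0.21 ± 0.11 and 0.02 ± 0.10, with adjusted p-values of 0.0908, 0.338 and 0.923. The mean ratio of Col5a1 minus that of Col5a2 was -0.71 and -0.72 in endoglin siRNA cells, and -0.39 and -0.86 in untreated cells.

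The sequences at the start of these genes are shown because the ratios of partner chains of 1 collagen type differed on every array. Col1a1 and Col5a1 were both lower with endoglin siRNA after loess. The sequences are from RefSeq on GRCr8, which gave this stretch for Col1a2, Col5a1, Col5a2 and Col11a1 but not for Col1a1 or Col3a1. The starts of Col1a1 and Col5a1 thus cannot be compared here. Each stretch runs 5′ to 3′ on the gene's own strand over the 250 bases before the start that the RefSeq promoter table gives. For Col1a2, Col5a2 and Col11a1 that start is the first base of the gene in RefSeq's gene table. For Col5a1 it lies 405 bases inside the gene, so the Col5a1 stretch is not upstream of the gene as listed there. Capitals mark matches on either strand to the CCAAT box (CCAAT), the TATA box (TATAAA), the GC box (GGGCGG) and the core of the Smad binding element (CAGAC); no marked matches overlap. The Col1a2 stretch is chr4:33518307-33518556 (plus strand) and the Col5a1 stretch is chr3:31606630-31606879 (plus strand). The Col5a2 stretch is chr9:55090152-55090401 (minus strand) and the Col11a1 stretch is chr2:204508886-204509135 (plus strand).
Col1a2: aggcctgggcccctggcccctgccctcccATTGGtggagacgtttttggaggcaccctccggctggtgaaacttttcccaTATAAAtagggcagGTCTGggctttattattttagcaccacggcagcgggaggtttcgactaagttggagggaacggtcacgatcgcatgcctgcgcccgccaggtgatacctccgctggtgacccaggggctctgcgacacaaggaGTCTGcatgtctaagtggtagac
Col5a1: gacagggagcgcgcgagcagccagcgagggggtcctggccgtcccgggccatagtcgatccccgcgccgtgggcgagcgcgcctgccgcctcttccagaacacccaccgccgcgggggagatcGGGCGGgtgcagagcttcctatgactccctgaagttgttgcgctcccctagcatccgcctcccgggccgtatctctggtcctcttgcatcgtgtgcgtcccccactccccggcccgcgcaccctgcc
Col5a2: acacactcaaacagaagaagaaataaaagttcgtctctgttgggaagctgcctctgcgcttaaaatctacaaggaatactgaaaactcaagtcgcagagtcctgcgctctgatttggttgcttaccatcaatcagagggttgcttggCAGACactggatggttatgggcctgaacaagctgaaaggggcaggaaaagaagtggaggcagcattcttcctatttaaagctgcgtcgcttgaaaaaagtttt
Col11a1: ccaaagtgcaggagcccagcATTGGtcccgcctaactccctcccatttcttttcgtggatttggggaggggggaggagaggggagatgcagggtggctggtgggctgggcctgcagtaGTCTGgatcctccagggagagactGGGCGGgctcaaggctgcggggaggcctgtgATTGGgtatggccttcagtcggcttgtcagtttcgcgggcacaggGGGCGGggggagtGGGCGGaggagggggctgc

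The Col1a2 stretch held 1 CCAAT box, 1 TATA box and 2 Smad element cores. Its TATA box began at position -170 from that start, farther upstream than a TATA box usually lies, so the listed start may not be the main start of transcription. The Col5a1 stretch, which lies inside the gene, held 1 GC box and none of the other letters searched. The Col5a2 stretch held 1 Smad element core, and the Col11a1 stretch held 2 CCAAT boxes, 3 GC boxes and 1 Smad element core. Of 33469 stretches of the same length and table, of which 42.2% likewise ended away from the listed start of their gene, 42.9% held a Smad element core, 34.0% a CCAAT box, 30.5% a GC box and 12.9% a TATA box. A match describes letters in this window and does not show that a factor binds there.

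Col3a1, the type III chain, was above control siRNA on every array. Its probe had ratios of 0.76 and 0.67 in endoglin siRNA cells, against 0.70 and 1.43 in untreated cells. The untreated pool was far the highest, and the other 3 arrays lay close together. In endoglin siRNA cells the mean was 0.72 ± 0.15 (1.65-fold, adjusted p 0.0270), and in untreated cells it was 1.06 ± 0.15 (2.09-fold, adjusted p 0.0301). Probes of like brightness were also above 0: the 50 probes nearest to it in signal had a median ratio of 0.58 and 0.34 on the endoglin siRNA arrays and of 0.55 and 0.66 on the untreated arrays. Over those medians, Col3a1 was higher by 0.18 and 0.33 in endoglin siRNA cells and by 0.15 and 0.76 in untreated cells. The 50 probes nearest to Col1a1 probe 1 and to Col5a1 probe 1 had medians between -0.10 and 0.04 on the 4 arrays. In endoglin siRNA cells the Col3a1 call was lost when either endoglin siRNA array was left out. The untreated call was lost, at 0.70, without the untreated pool. In GRCr8 Col3a1 and Col5a2 are neighbours on chromosome 9, with 38.2 kb between them and 0 protein-coding genes in the gap.

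Col11a1 is where the probes of a gene disagreed most. Probe 1 had ratios of 1.49 and 0.54 in endoglin siRNA cells, against 0.40 and 0.44 in untreated cells. Probe 2 had 1.52 and 0.38 in endoglin siRNA cells, against 0.43 and 0.45 in untreated cells. On both probes the 1-animal endoglin siRNA array stood alone at the top, and on probe 2 the pooled endoglin siRNA array lay below both untreated arrays, so that the groups overlapped. Against control siRNA, the means in endoglin siRNA cells were 1.01 ± 0.18 (2.02-fold, adjusted p 0.0180) and 0.95 ± 0.22 (1.93-fold, adjusted p 0.0381). Without the 1-animal endoglin siRNA array the values were 0.54 and 0.38, and the call of probe 2 was lost. Without the pooled array they were 1.49 and 1.52. The call of probe 2 was also lost when either untreated array was left out.

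Col11a1 probe 3 had ratios of -0.01 and -0.01 in endoglin siRNA cells, against 0.09 and 0.03 in untreated cells. Only 3 of its 8 channel readings were well above background, all of them on pooled arrays, and against control siRNA its mean in endoglin siRNA cells was -0.01 ± 0.06 (adjusted p 0.954). Probe 4 was well above background only in the Cy5 channel of the untreated pool and was not tested. In the array design's coordinates, probes 1 and 2 lie near each other on chromosome 2, at 210154713 to 210154772 and 210152941 to 210153000. Measured from the start of probe 1, probe 3 starts at -157.6 kb and probe 4 at -44.1 kb, both on the side of probe 2. The probe sequences are not used here, and which transcripts or exons each probe matches was not tested.

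**Figure D2:**
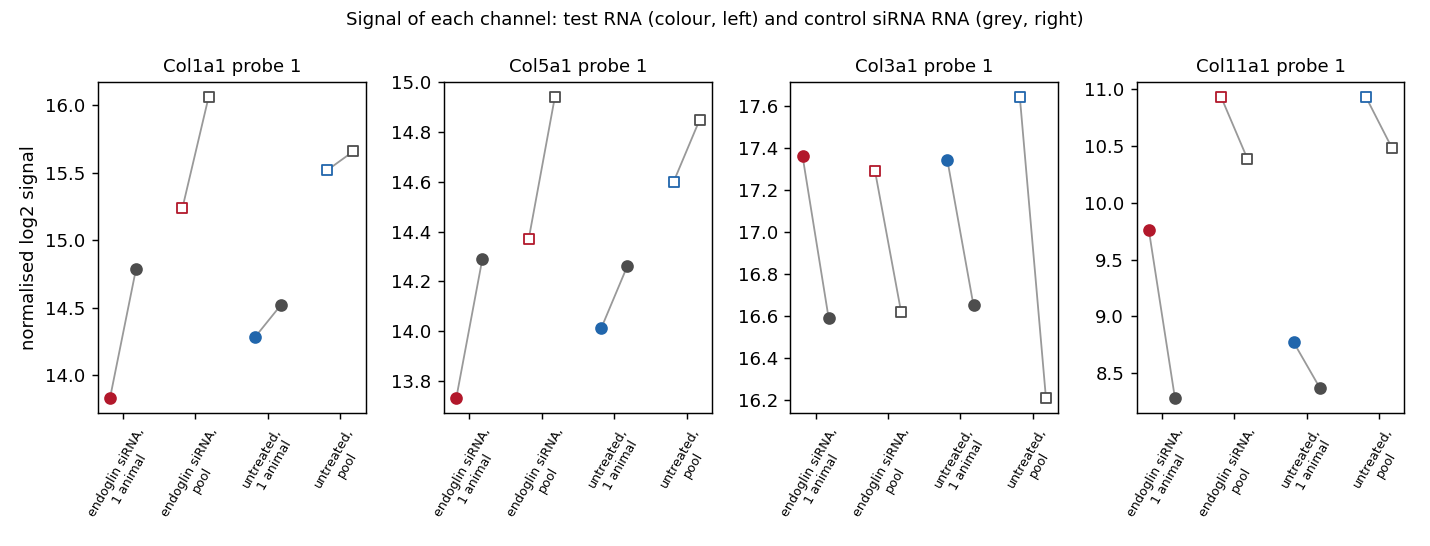
Normalised log2 signal (vertical axis, a separate scale in each panel) of the brightest probe of 4 fibrillar collagens on each array, test RNA in colour at the left and control siRNA RNA in grey at the right of each joined pair; circles are 1-animal arrays and squares are pooled arrays. Col1a1 was 13.83 and 15.24 in endoglin siRNA cells and 14.79 and 16.06 in their control siRNA channels, so the pooled arrays were brighter in both channels, as they were for Col5a1 and Col11a1.

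The level of some fibrillar collagens differed between RNA sources as well as between treatments. Levels are given as normalised log2 signals, set to a common distribution of mean signal across the arrays, and are compared only within a probe. Col1a1 probe 1 had levels of 13.83 (1 animal) and 15.24 (pool) in endoglin siRNA cells, 14.28 and 15.52 in untreated cells, and 14.79, 16.06, 14.52 and 15.66 in the control siRNA channels of the same 4 arrays. The pooled RNA was higher than the 1-animal RNA in every such pair. Col11a1 probe 1 had levels of 9.76 and 10.93 in endoglin siRNA cells, 8.77 and 10.93 in untreated cells, and 8.28, 10.39, 8.37 and 10.48 in the control siRNA channels. Here the step between the 1-animal and the pooled control RNA was larger than the step between treatments on any array. Col5a1 probe 1 was likewise higher in pooled RNA, at 13.73 and 14.37 in endoglin siRNA cells, 14.01 and 14.60 in untreated cells, and 14.29, 14.94, 14.26 and 14.85 in control siRNA cells. Col1a2 probe 1 stayed within 15.32 to 15.69 in all 8 readings. With 1 animal and 1 pool, the spread between animals cannot be read from these values. In such bulk RNA, fewer cells of a type and less RNA per cell cannot be told apart.

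**Figure D3:**
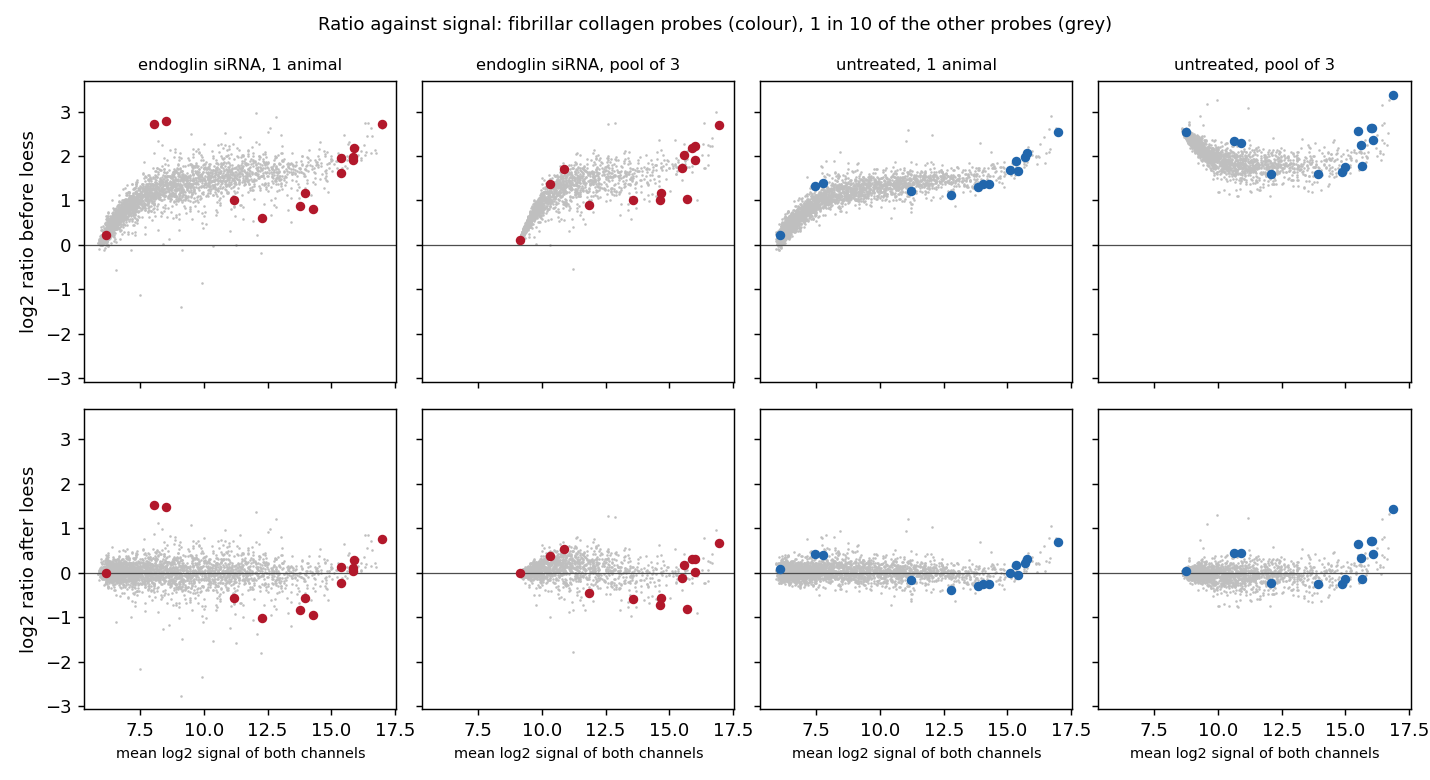
Log2 ratio (vertical axis) against the mean log2 signal of both channels (horizontal axis) before loess (top row) and after it (bottom row), 1 panel per array; fibrillar collagen probes are coloured, and grey points are 1 in 10 of the other probes. Before loess the ratio changes with signal on every array; after loess Col1a1 and Col5a1 lie below the cloud on the endoglin siRNA arrays, and Col3a1, at the far right, lies above 0 on all 4.

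The direction for Col1a1 and Col5a1 rested on correcting each ratio for brightness. When arrays were only centred on their median, without loess, the brightest 10% of probes kept median ratios of 0.96 and 1.40 on the endoglin siRNA arrays, and of 0.91 and -0.59 on the untreated arrays. With that setting the median of all probes in endoglin siRNA cells was 0.32, and Col1a1 probes 1 to 3 stood at 0.45, 0.47 and 0.33 and Col5a1 probes 1 and 2 at 0.70 and 0.48, turned round in sign and above or near that median. The Col1a1 probes and Col5a1 probe 1, which were among the brightest 10%, lay below the 0.96 and 1.40 of those probes. After loess the brightest 10% had medians between -0.03 and 0.00 on the 4 arrays. With the log ratios written by Feature Extraction, whose headers list LOWESS settings for dye normalisation, Col1a1 probe 1 was -0.91 and Col5a1 probe 1 was -0.49 in endoglin siRNA cells. Their adjusted p-values were then 0.0695 and 0.0779, and none of the 29845 probes passed in any comparison.

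In the comparison with untreated cells a constant dye effect cancels, but transfected cells are set against untransfected ones. There Col1a1 probes 1 to 3 had the lowest differences among the fibrillar collagens (above 0 with median centring alone). Col11a1 probes 1 and 2 had the highest. The differences were -0.70 ± 0.10, -0.58 ± 0.10 and -0.49 ± 0.14 (SE) for Col1a1 probes 1 to 3, with adjusted p-values of 0.0688, 0.144 and 0.371. For Col5a1 they were -0.31 ± 0.08 and -0.31 ± 0.09, with adjusted p-values of 0.334 and 0.380. By limma 0 of the 14 probes passed, beside 0.101% of all tested probes (0.0369% higher and 0.0637% lower). An unadjusted p under 0.05 was found for 5 of 14, for 8.03% of all and for 18.9% of the brightest 10%. The 5 were the probes of Col1a1 and Col5a1. Leaving out any array leaves its group with 1 array, so calls of this difference from such fits are not named, and only their counts are given below. Calls said elsewhere to be lost or kept without an array likewise rest on a group with 1 array.

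Among the remaining probes, Col3a1 differed by -0.34 ± 0.21 (adjusted p 0.780), and Col11a1 probe 1 by 0.59 ± 0.26 (adjusted p 0.632). The median over the 14 was -0.28, against 0.02 over all tested probes, and 12 of the 14 were below 0. Taken by RNA source, Col1a1 probe 1 differed by -0.71 in the 1-animal RNA and by -0.68 in the pool, and Col5a1 probe 1 by -0.31 in both. Col11a1 probe 1 differed by 1.09 in the 1-animal RNA and by 0.10 in the pool. Col3a1 differed by 0.06 in the 1-animal RNA and by -0.75 in the pool. The probes of Col1a2 and Col5a2 differed by -0.16 to 0.04 in the 1-animal RNA and by -0.48 to -0.39 in the pool. For Col3a1, Col1a2 and Col5a2 the values below 0 thus lay mostly in the pool, where the untreated array was the highest. Col1a1 probe 3 differed by -0.65 in the 1-animal RNA and by -0.34 in the pool, and Col5a1 probe 2 by -0.39 and by -0.22. The Col1a1 and Col5a1 differences were thus below 0 in both sources on every probe, and alike in size on some probes and not on others.

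**Figure D4:**
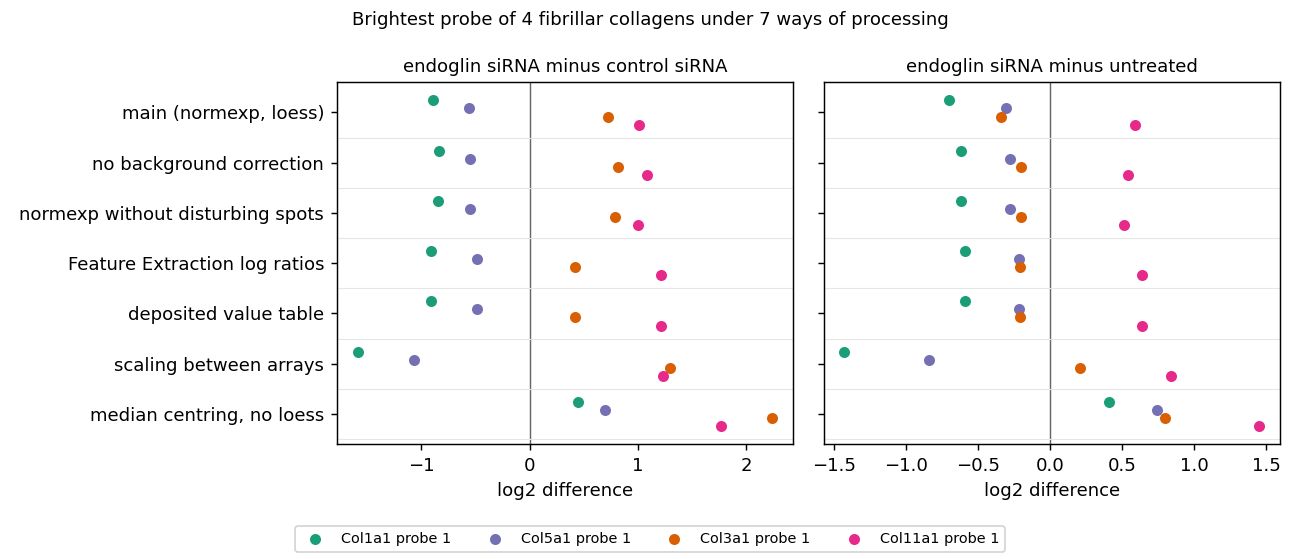
Log2 difference (horizontal axis) of the brightest probe of Col1a1, Col5a1, Col3a1 and Col11a1 under 7 ways of processing (rows), for endoglin siRNA minus control siRNA (left) and minus untreated (right). Against control siRNA, Col1a1 lies between -1.59 and -0.84 and Col5a1 between -1.07 and -0.49 in the 6 rows with a brightness correction, and both lie above 0 (0.45 and 0.70) with median centring alone.

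In untreated cells relative to control siRNA, 1 of the 14 tested probes passed, beside 0.834% of all tested probes. It was Col3a1, which was higher; 0.486% of all tested probes were higher. Col5a2 probe 1 had 0.52 ± 0.09 (adjusted p 0.0578). Col1a1 probes 1 to 3 had means of -0.19, -0.21 and -0.32 and Col5a1 probes 1 and 2 of -0.25 and -0.20, and none of them passed. By limma, 9 of the 14 had an unadjusted p under 0.05, as had 14.0% of all tested probes. Of the brightest 10% of probes, which held 10 of the 14, 35.1% had such a p and 4.59% passed (2.85% higher). The median over the 14 was 0.17, against 0.00 over all. The count of probes that passed changed when 1 array was left out. Without the untreated pool the Col3a1 value was 0.70.

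Macrophage markers moved with this comparison. Of 12 measured, 5 were higher in untreated than in control siRNA cells, Cd68 (0.99), C1qa (1.16), C1qb (0.96), Tyrobp (1.34) and Lyz2 (1.70), and none was lower, beside 0.486% of all tested probes higher and 0.348% lower. The summed normalised signal of the 12 ranged over 11155 to 36338 in endoglin siRNA cells, 25360 to 68397 in untreated cells and 9162 to 36354 in control siRNA cells. Against control siRNA, 1 of the 12 (Cd14) was higher in endoglin siRNA cells, beside 5.19% of all tested probes. Against untreated cells 1 (C1qa) was lower in endoglin siRNA cells, beside 0.0637% of all tested probes. The part of macrophage markers in the fibrillar collagen values was not tested.

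Markers of the stellate cells themselves went both ways. Of the 14 measured, 3 were higher in endoglin siRNA than in control siRNA cells and 2 lower, beside 5.19% and 3.09% of all tested probes. Higher were Cygb (0.76, adjusted p 0.00707), a globin of stellate cells, Pdgfra (0.62, adjusted p 0.0103), a growth factor receptor, and Vim (0.36, adjusted p 0.0170), an intermediate filament protein. Rgs5, a regulator of G protein signalling, was lower, with ratios of -1.42 and -0.58 in endoglin siRNA cells (adjusted p 0.0145), against 0.19 and 0.34 in untreated cells. Also lower was Des (-0.61, adjusted p 0.0245), another intermediate filament protein. In untreated cells 2 of the 14 were higher, Cygb (1.00) and Vim (0.41), and 1 lower, Des (-0.76). Over all tested probes 0.486% were higher and 0.348% lower in that comparison. The summed normalised signal of the 14 ranged over 364301 to 444079 in endoglin siRNA cells, 404892 to 457945 in untreated cells and 280811 to 366495 in control siRNA cells. Their part in the fibrillar collagen values was not tested either. Of the other marker lists in endoglin siRNA cells, 1 of 8 hepatocyte genes was higher (Cyp2e1, 0.48), and 1 of 9 sinusoidal endothelial genes was higher (Kdr) and 1 lower (Flt1). In the same cells 2 of 5 cholangiocyte genes were lower (Sox9 and Spp1) and 1 of 9 portal fibroblast and mesothelial genes was higher (Gpc3). Spp1 was higher in untreated cells (1.18, adjusted p 0.0108 by limma). The cholangiocyte markers Krt19 and Epcam were well above background in each dye on 1 and 0 arrays and were not tested.

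The counts in the collagen lists that follow are against control siRNA in endoglin siRNA cells, where 3.09% of all tested probes were lower and 5.19% higher. In fits without 1 array the shares over all probes differed from these, so counts from such fits cannot be set against them. The calls of these lists were likewise lost with Feature Extraction log ratios, the deposited value table, median centring alone and scaling between arrays. Other fibrillar collagens did not pass. Col2a1, Col5a3, Col11a2 and Col27a1 were measured, and 0 of the 4 passed by limma against control siRNA in endoglin siRNA cells. Col5a3, the third chain of type V collagen, had a mean of 0.21 (adjusted p 0.0807), and Col11a2, the second chain of type XI, had 0.20 (adjusted p 0.185).

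Genes that modify and fold collagen chains in the endoplasmic reticulum were lower with endoglin siRNA in several members. Of 20 measured hydroxylase, chaperone and secretion genes, 9 fell relative to control siRNA and 0 rose, beside 3.09% and 5.19% of all tested probes, and their median was -0.24 against 0.02 over all. Without the 1-animal endoglin siRNA array 4 fell. P3h2, a prolyl 3-hydroxylase, had ratios of -1.26 and -0.48 in endoglin siRNA cells, against -0.09 and -0.31 in untreated cells (mean -0.87 in endoglin siRNA cells, adjusted p 0.0184). Without the 1-animal endoglin siRNA array its value was -0.48, still past the threshold. P4ha3, a catalytic subunit of prolyl 4-hydroxylase, had -0.67 and -0.72, against -0.18 and -0.41 in untreated cells (mean -0.69, adjusted p 0.00421). Fkbp10, a chaperone of type I procollagen, had a mean of -0.65, and Plod2, the lysyl hydroxylase of the telopeptides, of -0.53. On each of these 4 genes both endoglin siRNA arrays lay below both untreated arrays, as they did on 11.5% of all tested probes; the 4 were named as the called members with the largest changes. With median centring alone the list median turned to 0.84, and P4ha3, Fkbp10 and Plod2 turned to 0.45, 0.33 and 0.60, as Col1a1 did.

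Enzymes that process and cross-link the secreted chains had 3 of 12 members lower and 0 higher (3.09% and 5.19% of all tested probes), with a median of -0.04. Tgm2, which forms glutamyl-lysine cross-links, had the deepest ratios, -1.98 and -1.09 in endoglin siRNA cells, against 0.20 and -0.59 in untreated cells (mean -1.54, adjusted p 0.00994). Lox and Loxl1, which oxidise lysines for collagen and elastin cross-links, had means of -0.67 and -0.45 (adjusted p 0.0240 and 0.0281). Lox had ratios of -0.96 and -0.38 in endoglin siRNA cells, against 0.19 and 0.48 in untreated cells. With median centring alone Lox and Loxl1 stood at 0.69 and 0.97. Without the 1-animal endoglin siRNA array the calls of Lox and Loxl1 were lost.

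**Figure D5:**
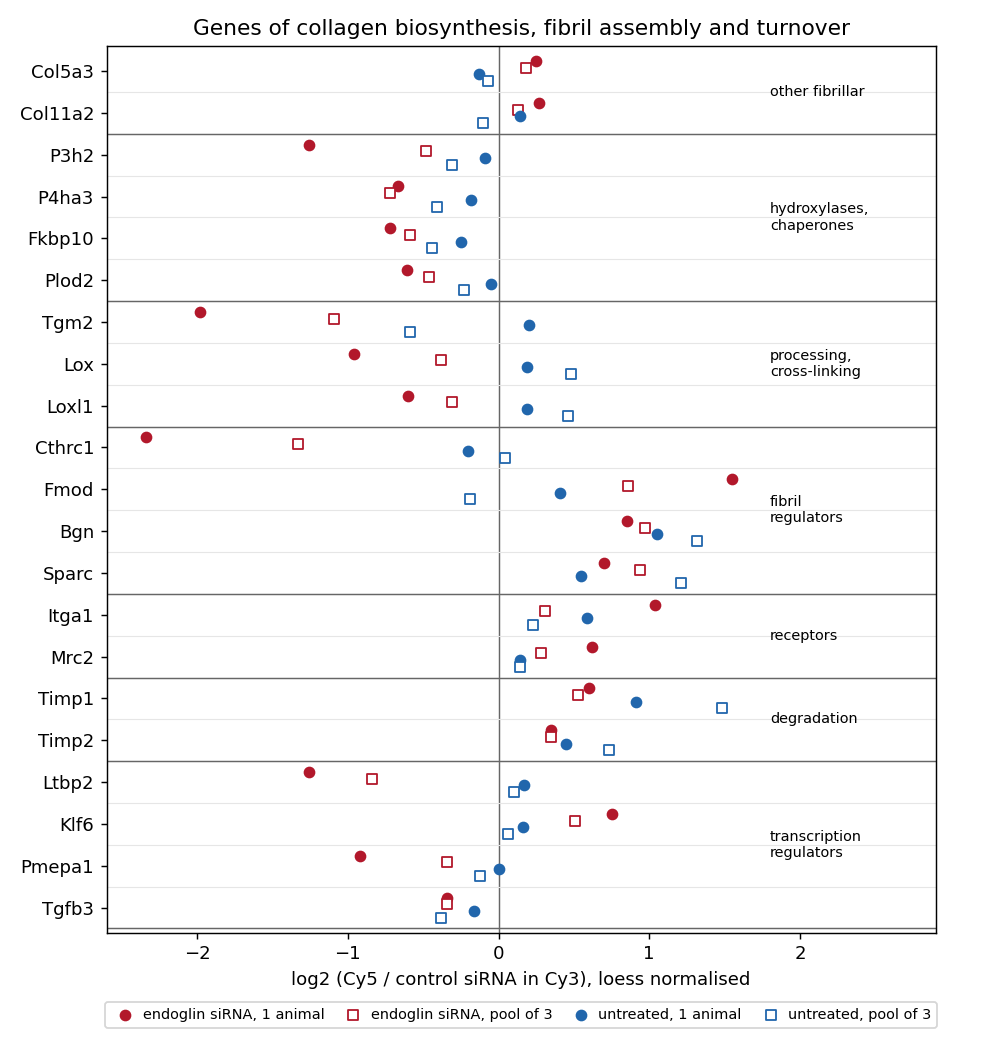
Log2 ratio of Cy5 RNA to control siRNA RNA (horizontal axis) on each array for the 21 named genes of 7 collagen lists (rows), by the brightest probe of each gene; symbols are as for the fibrillar collagens. Tgm2 (-1.98 and -1.09), Cthrc1 (-2.34 and -1.33) and Ltbp2 (-1.26 and -0.84) lie far left on the endoglin siRNA arrays, and Bgn and Sparc lie right of 0 on all 4.

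Proteins that bind the fibril split. Of 19 fibril-associated collagens and fibril regulators, 5 fell and 3 rose relative to control siRNA, beside 3.09% and 5.19% of all tested probes, with a median of -0.18. Without the pooled endoglin siRNA array the list median was -0.18 too. Cthrc1, a secreted protein known to limit collagen deposition, had -2.34 and -1.33 in endoglin siRNA cells, against -0.20 and 0.04 in untreated cells (mean -1.83, adjusted p 0.00428). Fmod, a small leucine-rich proteoglycan that binds type I fibrils, had 1.55 and 0.86, against 0.41 and -0.19 in untreated cells (mean 1.20, adjusted p 0.0101). Bgn, another such proteoglycan, and Sparc, a collagen-binding glycoprotein, were higher in both comparisons with control siRNA. Bgn had means of 0.91 in endoglin siRNA cells and 1.19 in untreated cells, and Sparc of 0.82 and 0.88, so that, like Col3a1, they were above control siRNA on all 4 arrays. The Sparc call with endoglin siRNA was lost without the pooled endoglin siRNA array.

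Collagen receptors and degradation genes changed in few members. Of 7 receptors 2 rose and 0 fell, namely Itga1, the alpha-1 chain of a collagen-binding integrin (mean 0.68, adjusted p 0.0430), and Mrc2, which takes up collagen fragments (mean 0.45, adjusted p 0.0225). Of 10 degradation genes 2 rose and 0 fell, Timp1 (0.57) and Timp2 (0.35), both inhibitors of matrix metalloproteinases. Over all tested probes 5.19% rose and 3.09% fell. Timp1 and Timp2 also rose in untreated cells, by means of 1.20 and 0.59, where 0.486% of all tested probes rose. The receptor median was -0.03 and the degradation median 0.03. The calls of Itga1 and Mrc2 were lost without the 1-animal endoglin siRNA array, that of Itga1 also when either untreated array was left out, and those of Timp1 and Timp2 when either endoglin siRNA array was left out.

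Of 18 regulators of collagen transcription, 1 rose and 3 fell, with a median of -0.01; 5.19% of all tested probes rose, near the share in this list, and 3.09% fell. Without the 1-animal endoglin siRNA array 2 rose and 1 fell, and without the pooled array 2 rose and 3 fell. Ltbp2, a latent transforming growth factor beta binding protein family member, had ratios of -1.26 and -0.84 in endoglin siRNA cells, against 0.17 and 0.10 in untreated cells. Its mean was -1.05 (adjusted p 0.00347), and its difference from untreated cells, -1.19, passed as well (adjusted p 0.0430). Pmepa1, a transforming growth factor beta target and inhibitor, had a mean of -0.63 (adjusted p 0.0233), and the ligand Tgfb3 of -0.34 (adjusted p 0.0300). With median centring alone Pmepa1 and Tgfb3 stood at 0.32 and 1.00. The Pmepa1 call was lost without the 1-animal endoglin siRNA array, and the Tgfb3 call when either endoglin siRNA array was left out. Klf6, a zinc finger factor of stellate cell activation, rose by a mean of 0.63 (adjusted p 0.00567).

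The genes most like Col1a1 over the 4 arrays were sought by the root mean square distance of their log2 ratios to those of probe 1. C4a, a complement gene, was nearest at 0.08, with -0.98 and -0.67 in endoglin siRNA cells and -0.23 and -0.16 in untreated cells. Ppp1r14c and Tlcd3a followed at 0.09 and 0.10. For Col11a1 probe 1, with its high 1-animal value, Rapgef5 was nearest at 0.08, with 1.52 and 0.58 in endoglin siRNA cells and 0.55 and 0.40 in untreated cells. Fbln5, an elastic fibre protein, followed at 0.11 and Omd, a small leucine-rich proteoglycan, at 0.17. These distances rest on 4 arrays and describe likeness only.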

How the data were processed

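RNA was isolated with RNeasy and labelled with an Agilent low-input amplification kit, per the labels. Per the file headers, the authors read 4 two-colour Agilent rat arrays with Feature Extraction 9.5.1.1, all on 1 slide and in 1 scan, which gave the mean and background intensity of each spot in each dye. The deposited table gives log10 ratios, which matched those in the scanner files (r = 1) for endoglin siRNA and their reverse (r = -1) for untreated cells, and the direction used here is that of the dyes named in the labels.

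Here intensities were corrected by normexp with an offset of 50 and log2 ratios were normalised by loess, with controls at weight 0. Flagged spots were left out and spots of a probe averaged. Probes whose signal stood well above background on 2 or more arrays in either dye (30021 of 41012) and that were measured on every array (29845) were fitted with limma 3.58.1 in R 4.3.3, with 1 mean per test group and a spread shared by all 4 arrays. Adjusted p-values are Benjamini-Hochberg values over all 29845 probes, called at 0.05, and errors are standard errors of this fit. The number of arrays limits the precision. The p-values cover the spread of the ratios between these arrays, and each ratio holds its own array's control siRNA reading. Whether arrays shared a control RNA is not stated, so how far its spread is covered cannot be told. The fit was tested on simulated ratios.

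Names came from the array files and were updated from a RefSeq gene table of GRCr8, in which 14086 tested probes matched nothing. The fibrillar collagens and the 13 lists were chosen with earlier results of these data known. Named from each collagen list were the members that passed with endoglin siRNA (at most 4, largest first) or else the 2 largest, each by its brightest probe. Cell type markers were named where they passed with endoglin siRNA, and macrophage markers also where they passed in untreated cells. Some markers were also named for their detection above background or the lack of it. The comparison with the 50 probes nearest in signal was added after the data were seen. Same-source arrays deviated together with r = 0.29, over 2 pairs that the labels do not tie to the same animals, so RNA source was not taken as a pairing in the model. In every marker list the summed signals of the control siRNA channels did not overlap between 1-animal and pooled arrays. Those of the macrophage markers were 34093 and 36354 on the 1-animal arrays, and 9162 and 10452 on the pooled arrays. Counts with RNA source as a replicate block are given below.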

Additional observations from a re-analysis of the deposited data

Results flagged for a closer look

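Col11a1 probe 3 stood out because both endoglin siRNA arrays lay below 0 (-0.01 and -0.01) and both untreated arrays above 0 (0.09 and 0.03). The difference, -0.07, passed no test (adjusted p 0.935), and the probe was well above background in 3 of 8 readings.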

How the results depend on the processing

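The count of fibrillar collagen probes called with endoglin siRNA against control siRNA (8 of 14) was 9 without background correction, with normexp fitted without 10 disturbing spots, or with RNA source as a replicate block, 8 without the filter, 4 with only the brightest probe per gene, and 6 to 7 without 1 array. It was 0 with Feature Extraction log ratios, the deposited table, scaling between arrays or median centring, as was every count of all probes (2472 with endoglin siRNA, 249 in untreated cells, 30 for their difference) and of fibrillar collagens in untreated cells (1). For all probes the 3 counts were 5570, 675 and 204 without background correction, 5023, 557 and 219 without the disturbing spots, 2716, 421 and 57 without the filter, and 4794, 1441 and 389 with the replicate block. Leaving out 1 array gave 1118 to 3395, 0 to 991 and 0 to 511. Fibrillar collagen probes called in untreated cells numbered 2 without background correction, without the disturbing spots or without the filter, 5 with the replicate block, and 0 to 5 without 1 array. For the difference they numbered 1 without the filter, 2 with the replicate block and 0 to 5 without 1 array. Among all calls with endoglin siRNA, 62.7% were higher, against 49.3% without background correction, 52.1% without the disturbing spots and 45.6% without the pooled endoglin siRNA array. The labels do not tie arrays of a source to the same animals, so the block is no pairing by design.

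Median centring reversed, with endoglin siRNA against control siRNA, Col1a1 (0.45, 0.47 and 0.33), Col1a2 probe 1 (1.20), Col5a1 (0.70 and 0.48), P4ha3 (0.45), Fkbp10 (0.33), Plod2 (0.60), Lox (0.69), Loxl1 (0.97), Pmepa1 (0.32) and Tgfb3 (1.00). In untreated cells it reversed Col1a1 probe 1 (0.05) and Col11a1 probe 3 (-0.15). In the difference it reversed Col1a1 (0.41, 0.47 and 0.49), Col1a2 (0.78 and 0.83), Col3a1 (0.80), Col5a1 (0.74 and 0.60) and Col5a2 (0.90, 0.84 and 0.94). Feature Extraction log ratios and the deposited table reversed Col5a2 probe 3 (-0.11 with endoglin siRNA, -0.02 in untreated cells) and Col1a2 probe 1 in untreated cells (-0.06). Scaling reversed the difference of Col3a1 (0.21) and of Col5a2 probes 1 and 2 (0.07 and 0.02). Leaving out 1 array gave differences of -0.06 (without the 1-animal endoglin siRNA array) to 1.08 for Col11a1 probe 2, of -0.71 to 0.02 (without the untreated pool) for Col3a1 and of -0.41 to 0.02 (likewise) for Col5a2 probe 3, and -0.06 (likewise) to 0.33 for Col1a2 probe 1 in untreated cells. Apart from median centring, the Col1a1 and Col5a1 probes kept their direction with endoglin siRNA under every alternative run. The causes of these changes were not tested. The 9 lower hydroxylase, chaperone and secretion genes numbered 0 to 11 over the alternatives, which were extended to the lists and named genes after the data were seen. With 2 arrays a group, dim probes such as Col11a1 probes 3 and 4 carry little information.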
